A study of Caenorhabditis elegans with 8 samples.

Results

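The nhr genes of Caenorhabditis elegans encode nuclear hormone receptors, and they were described here across strain and RNA interference (RNAi) treatment. Members were chosen by symbol from the deposited mRNA table: of 20182 genes, 268 carried an nhr symbol with a number. Apart from nhr-10, nhr-49, nhr-68 and nhr-80, which were set aside, 264 remained. A member had to reach 10 counts in at least 2 libraries, which left 184 genes. The other 80 had a median of 6.5 counts summed over all libraries, and 16 of them had none. Just inside the limit lay nhr-157, with a second highest count of 10, and just outside it nhr-172, with 9.

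Nuclear hormone receptors are transcription factors with a zinc finger domain that binds DNA and a second domain that can bind a small lipophilic ligand. C. elegans has a far larger family than insects or mammals, and most of its members arose from an ancestor related to the vertebrate receptor HNF4. A minority have clear counterparts across animals and act in molting, developmental timing and sterol signalling, while several HNF4-related members control fat, diet and toxin responses in the intestine.

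Total RNA of whole young adults was profiled in a search for transcripts acted on by REGE-1, a protein with an RNase domain. Worms of the wild type N2 and of the strain glp-1 (e2141) received food producing double-stranded RNA against rege-1, or a mock control, from the first larval stage. The 8 libraries formed 4 groups of 2, namely N2 mock, N2 RNAi, glp-1 mock and glp-1 RNAi. Animals of the glp-1 strain were kept at 25 °C, the restrictive temperature of this conditional allele of a germline Notch receptor. No temperature is stated for N2, so strain and temperature cannot be told apart. Since separate cultures are not stated, p-values measure only the spread between these libraries, which may be technical.

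Library totals were 26127079 to 30093967 mRNA counts and 464385 to 684124 intron counts. Counts assigned to rege-1 were higher in the libraries labelled RNAi, by a log2 of 2.70 in N2 and 2.11 in glp-1. Reads of the fed RNA and of the worm's own transcript cannot be told apart in these counts, so the knockdown could not be read from them. The mRNA of ets-4, known as a target of REGE-1, was called higher under RNAi in both strains, by a log2 of 2.25 in N2 and 1.93 in glp-1. All directions below rest on the labels. Germline markers were present in the libraries labelled glp-1: the summed level of 12 markers was 4341 to 4588 CPM (counts per 1000000 after scaling) there and 4902 to 6293 CPM in N2, and none was at 0. Of these, 2 were called lower in glp-1 mock than in N2 mock, glh-1 with a log2 of -1.09 and pgl-1 with a log2 of -0.49. The strong loss of germline RNA that the mutant label implies was thus not seen. In such whole-animal RNA, fewer cells of a type and less RNA per cell cannot be told apart.

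As a group the nhr genes were expressed at low levels. They took 0.161 to 0.194% of a library's counts, and their levels summed to 1668 and 1702 CPM in N2 mock, 1827 and 1892 CPM in N2 RNAi, 1751 and 1776 CPM in glp-1 mock, and 1742 and 1887 CPM in glp-1 RNAi. The median member had a mean of 5.56 CPM over all libraries, against 12.6 CPM for all 15321 genes tested. Per kilobase of coding length the medians were 4.54 and 12.2 CPM, and 28 of the 184 members, or 15.2%, lay above the median of all genes. Coding lengths ranged from 348 to 2634 bases. With 22 members below 1 CPM and another 22 above 20 CPM, the precision of the values below differed widely between members.

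By its mean over all libraries, the most abundant member per kilobase was nhr-31, at 54.5 ± 16.6 CPM per kilobase (SD over 8 libraries), a receptor known for control of vacuolar ATPase genes and growth of the excretory cell tubules. Next came nhr-66, a partner of NHR-49 in lipid gene control, at 47.9 ± 5.29 CPM per kilobase. Their order differed with treatment: nhr-66 had the higher mean under mock, at 46.4 ± 7.19 (SD, n = 2) against 37.9 ± 3.30 CPM per kilobase in N2 and 47.9 ± 0.0246 against 43.9 ± 2.16 in glp-1. Under RNAi nhr-31 was higher, at 71.1 ± 5.34 against 53.7 ± 1.77 CPM per kilobase in N2 and 65.1 ± 18.5 against 43.4 ± 5.21 in glp-1. Then followed nhr-97 at 36.8 ± 3.09 and nhr-86, a receptor acting in intestinal pathogen defence, at 31.7 ± 3.62 CPM per kilobase. The remainder of the top 10 lay close together: nhr-20 at 27.7 ± 2.03, nhr-2 at 27.5 ± 4.09, nhr-100 at 26.3 ± 4.55, nhr-69 at 24.6 ± 2.97, nhr-17 at 21.7 ± 11.7 and nhr-8 at 20.8 ± 1.95 CPM per kilobase. Neighbours in this order lay within their summed SDs of each other, except nhr-66 and nhr-97.

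**Figure D1:**
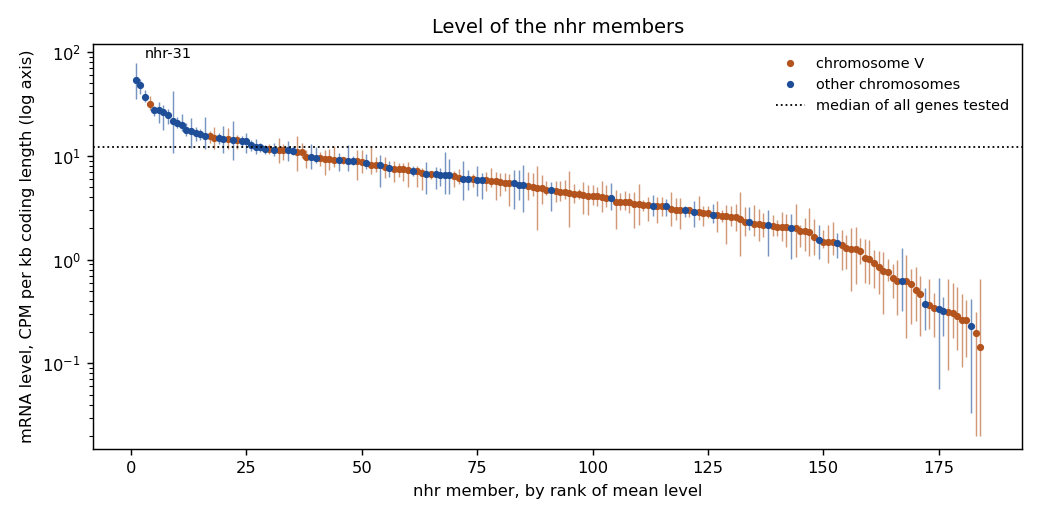
Level of every nhr member per kilobase of coding length, ordered from highest to lowest, on a log axis. Points are means and bars run from the lowest to the highest of the 8 libraries, with values under 0.02 drawn at 0.02. Most members lie below the median of all tested genes, 12.2 CPM per kilobase.

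Under rege-1 RNAi in N2, 8 nhr genes rose and 2 fell. The genes that rose were nhr-179, nhr-99, nhr-35, nhr-168, nhr-121, nhr-22, nhr-31 and nhr-269, and those that fell were nhr-202 and nhr-142. Expressed as a share, 5.43% of members passed an adjusted p of 0.05 (edgeR quasi-likelihood test over all genes), near the 4.79% of all genes that did. The median log2 change was 0.05 over members and -0.01 over all genes. One of them, nhr-269, met the count limit through N2 RNAi alone, the group where it was high, and had to differ; without it 7 rose and 2 fell. At an unadjusted p under 0.05 there were 31 members, 16.8% against 13.2% of all genes. Leaving out 1 library left 6 members called without either N2 mock library, 8 without N2 RNAi 1 and 7 without N2 RNAi 2, with 2.7 to 4.35% of all genes called. In all 4 of those fits nhr-179, nhr-99, nhr-35, nhr-168 and nhr-121 were called. The summed level of 6 intestine markers also differed with treatment, at 971 to 1006 CPM in the mock libraries, 2034 to 2187 CPM in N2 RNAi and 1776 to 1907 CPM in glp-1 RNAi. Of these markers act-5, vha-6 and pept-1 were called higher in both strains, while elt-2, ges-1 and ifb-2 were not called. The part of this difference in the nhr values was not tested.

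Apart from nhr-269, which had no counts under mock, the largest rise belonged to nhr-179 (WBGene00017512; chromosome V from 1615723 to 1618860, minus strand, build WBcel235 as for all positions here). Its levels were 1.61 and 1.67 CPM in N2 mock, 5.73 and 5.91 CPM in N2 RNAi, 1.64 and 1.43 CPM in glp-1 mock, and 3.69 and 4.59 CPM in glp-1 RNAi. Every RNAi library was above every mock library in both strains. In N2 the rise was 3.54-fold, a log2 change of 1.82 (SE 0.22, adjusted p = 0.000319). The glp-1 change was 1.43 on the log2 scale (SE 0.22, adjusted p = 0.00321). In glp-1 the adjusted p became 0.0502 without glp-1 mock 1 and 0.0911 without glp-1 mock 2.

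A like pattern was seen for nhr-168 (WBGene00008221; V from 13331114 to 13333871, minus strand). It measured 3.71 and 3.77 CPM in N2 mock, 8.53 and 9.69 CPM in N2 RNAi, 2.79 and 3.73 CPM in glp-1 mock, and 7.72 and 7.22 CPM in glp-1 RNAi. The groups did not overlap in either strain, and the changes were close in size. On the log2 scale N2 rose by 1.28 (SE 0.20, adjusted p = 0.00233). The strain glp-1 rose by 1.20 (SE 0.20, adjusted p = 0.0062), with an adjusted p of 0.18 without glp-1 mock 1.

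The level of nhr-99 (WBGene00003689; V from 474778 to 477155, plus strand) was 3.5 and 2.41 CPM in N2 mock and 9.22 and 10.1 CPM in N2 RNAi. In glp-1 it was 4.56 and 4.09 CPM under mock and 7.44 and 7.53 CPM under RNAi. Again no RNAi library overlapped a mock library of its strain. In N2 the level was 3.26-fold higher under RNAi, or 1.70 on the log2 scale (SE 0.21, adjusted p = 0.000416). The glp-1 difference of 0.79 (SE 0.21, adjusted p = 0.0829) did not pass.

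Among members expressed above 15 CPM in every library, nhr-31, nhr-35 and nhr-22 rose in N2. The receptor nhr-31 (WBGene00003625; IV from 8022655 to 8029513, minus strand) measured 70.6 and 62.4 CPM in N2 mock, 131 and 118 CPM in N2 RNAi, 79.6 and 74.3 CPM in glp-1 mock, and 91.2 and 137 CPM in glp-1 RNAi. Its groups did not overlap in either strain, but the pair of glp-1 RNAi libraries lay far apart. Its log2 change in N2 was 0.91 (SE 0.18, adjusted p = 0.011). For glp-1 the estimate was 0.57 (SE 0.18, adjusted p = 0.184). In N2 the adjusted p rose to 0.08 without N2 mock 1, 0.128 without N2 mock 2 and 0.0775 without N2 RNAi 1.

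For nhr-35 (WBGene00003628; X from 4532691 to 4537546, plus strand) levels were 21.0 and 19.4 CPM in N2 mock, 37.1 and 37.8 CPM in N2 RNAi, 22.2 and 24.5 CPM in glp-1 mock, and 33.0 and 30.9 CPM in glp-1 RNAi. Replicates of nhr-35 lay close together and the treatments were separate in both strains. N2 rose by 0.89 on the log2 scale (SE 0.14, adjusted p = 0.0018), while the glp-1 estimate was 0.45 (SE 0.13, adjusted p = 0.15).

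Levels of nhr-22 (WBGene00003621; II from 6446195 to 6449792, minus strand) were 18.6 and 15.8 CPM in N2 mock, 37.7 and 29.6 CPM in N2 RNAi, 21.6 and 19.7 CPM in glp-1 mock, and 23.9 and 31.4 CPM in glp-1 RNAi. Both strains had separate groups, with a narrow gap in glp-1. The log2 change in N2 was 0.97 (SE 0.18, adjusted p = 0.00826), and that in glp-1 was 0.42 (SE 0.18, adjusted p = 0.435). The N2 adjusted p was 0.103 without N2 mock 2 and 0.0714 without N2 RNAi 1.

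At a lower level nhr-121 (WBGene00003711; III from 2449338 to 2454807, minus strand) measured 5.99 and 5.95 CPM in N2 mock, 11.9 and 12.9 CPM in N2 RNAi, 7.62 and 7.21 CPM in glp-1 mock, and 10.2 and 10.4 CPM in glp-1 RNAi. All RNAi values exceeded all mock values, by a log2 estimate of 1.06 (SE 0.17, adjusted p = 0.00237) within N2 and 0.47 (SE 0.16, adjusted p = 0.263) within glp-1.

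The rarest called member was nhr-269 (WBGene00011150; V from 15368470 to 15369807, minus strand), which had 0 counts in all 4 mock libraries. It had 12 and 24 counts in N2 RNAi and 1 and 5 counts in glp-1 RNAi. With the mock group set to a floor of 3 counts, the observed RNAi level was 12.1-fold that floor in N2 and 2.19-fold in glp-1. These values are a description, since N2 RNAi alone brought it past the count limit, and its p is not given. Its call in N2 was lost without N2 mock 1, N2 mock 2 or N2 RNAi 2. The floor covers counting error of the mock group only. That of the few RNAi counts is not covered, so the ratios are not lower bounds.

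The pair of members that fell did so by less than 2-fold and with weaker evidence. For nhr-202 (WBGene00019742; V from 462588 to 464963, plus strand) levels were 6.31 and 7.0 CPM in N2 mock, 3.45 and 3.71 CPM in N2 RNAi, 5.36 and 6.62 CPM in glp-1 mock, and 3.93 and 5.22 CPM in glp-1 RNAi. Its log2 change in N2 was -0.89 (SE 0.22, adjusted p = 0.0352), beside -0.39 for glp-1 (SE 0.21, adjusted p = 0.574). Its span overlaps nhr-201 on the same strand, and how reads shared by similar or overlapping genes were counted, or whether strand was used, is not given in the sources used here. For nhr-142 (WBGene00018430; V from 5785957 to 5790553, minus strand) levels were 5.68 and 4.24 CPM in N2 mock, 2.84 and 2.64 CPM in N2 RNAi, 4.18 and 4.48 CPM in glp-1 mock, and 3.37 and 3.25 CPM in glp-1 RNAi. It fell in N2 by 0.86 on the log2 scale (SE 0.22, adjusted p = 0.0447), beside -0.39 for glp-1 (SE 0.21, adjusted p = 0.58). RNAi and mock did not overlap for either gene. The call of nhr-202 was lost whichever N2 library was left out, at adjusted p 0.117 to 0.165, and that of nhr-142 without N2 mock 1 (0.297), N2 RNAi 1 (0.113) or N2 RNAi 2 (0.255). That of nhr-142 was also lost with a replicate block (0.0519), under DESeq2 (0.0705) and with the compared groups fitted alone (0.144), and that of nhr-202 in the last of these (0.0766).

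**Figure D2:**
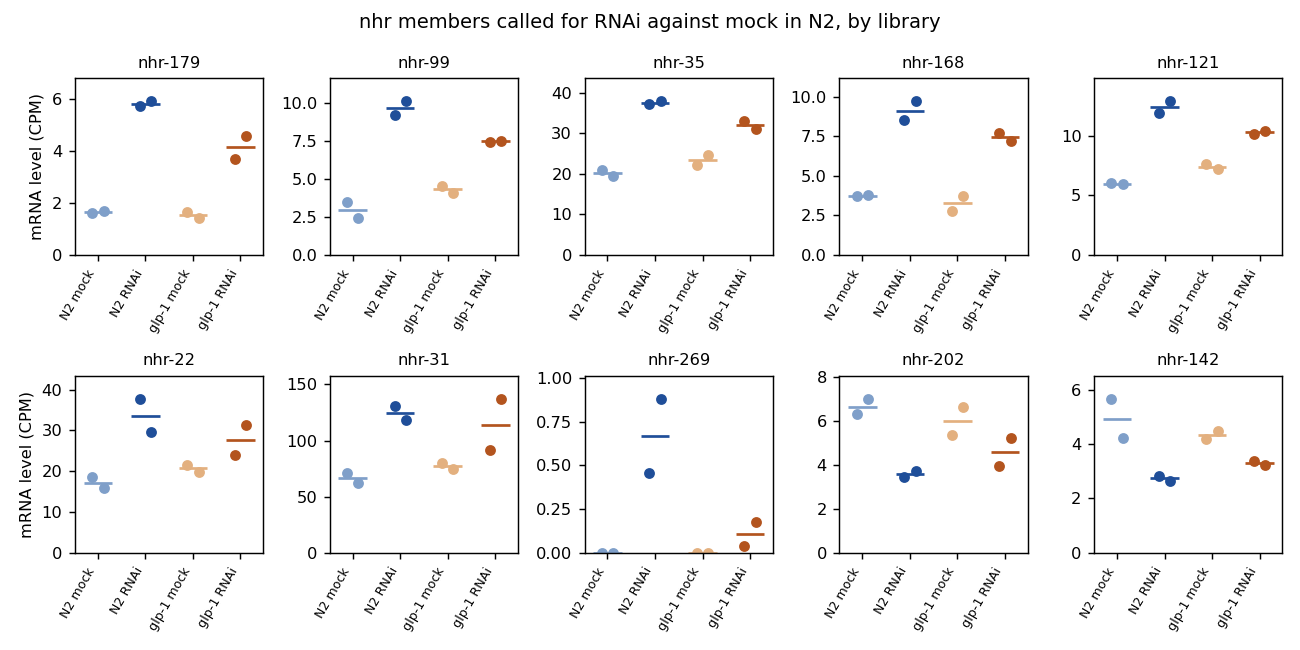
Level in every library of the 10 nhr members called under RNAi against mock in N2, 1 panel a gene, in CPM on linear axes that start at 0. Points are libraries and short lines are group means of n = 2, and in each panel the N2 RNAi points lie apart from the N2 mock points.

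In glp-1, 2 members were called for RNAi against mock: nhr-179 and nhr-168 rose and none fell. That is 1.09% of members, under the 2.70% of all genes called, but at an unadjusted p under 0.05 there were 25 members, 13.6% against 10.4% of all genes. Without glp-1 mock 1 no member was called, without glp-1 mock 2 there was 1, and without either glp-1 RNAi library there were 3. The all-gene shares were then 1.2%, 1.25%, 1.92% without glp-1 RNAi 1 and 9.52% without glp-1 RNAi 2. The members nearest to the threshold without passing it were nhr-99, given above, nhr-112 with a log2 change of 0.90 (SE 0.24, adjusted p = 0.0933) and nhr-79 with 0.72 (SE 0.20, adjusted p = 0.104). In N2 the nearest were nhr-19 with 0.76 (SE 0.20, adjusted p = 0.0528), nhr-63 with 1.10 (SE 0.30, adjusted p = 0.0668) and nhr-213 with 0.88 (SE 0.26, adjusted p = 0.094).

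For all 9 genes called in N2 other than nhr-269, the glp-1 value had the same sign and was nearer to 0. With no counts under mock, nhr-269 could not fall in either strain, so it is not counted here. The 9 genes were chosen by their N2 values, so smaller values in glp-1 could follow from that choice alone. The strain difference of the RNAi effect itself was called for 0 members by edgeR, where 0.0261% of all genes were called, and for 0 by DESeq2. At an unadjusted p under 0.05 it gave 8 members, 4.35% against 5.4% of all genes, and the smallest adjusted p was 0.805, so a difference between the strains was not shown for any member. Over the 183 members other than nhr-269, 120, or 65.6%, had the same sign of change in both strains, against 56.4% of all genes. Across the same 183 members the log2 changes of the strains had a Pearson r of 0.476 and a Spearman rho of 0.459. With nhr-269 kept, the 184 members had a Pearson r of 0.736 and a Spearman rho of 0.468. Over all 15321 genes tested, nhr-269 included, the Pearson r was 0.614 and the Spearman rho 0.261. Whether the members' Pearson r lay above or below that of all genes thus depended on nhr-269. These points share libraries within a strain, genes are not independent replicates, and the contrasts share no library.

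**Figure D3:**
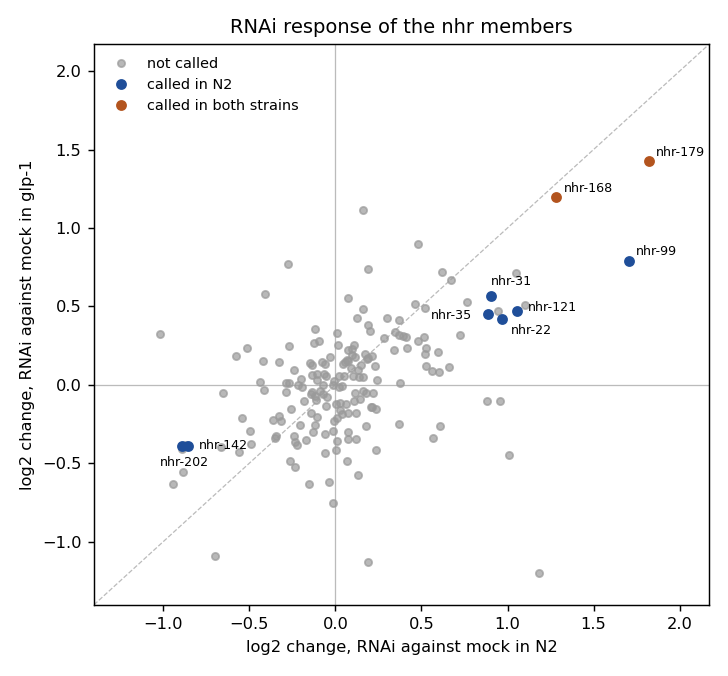
Log2 change of each nhr member under RNAi in N2 (horizontal) and in glp-1 (vertical), without nhr-269, whose mock counts were 0. Blue points were called in N2 and orange points in both strains. All 9 coloured points, chosen by their N2 values, lie in the quadrants of equal sign, nearer to 0 in glp-1.

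A looser description asked whether both RNAi libraries lay on the same side of both mock libraries. In both strains at once this held upward for 29 members, 15.8% against 7.89% of all genes, and downward for 12 members, 6.52% against 7.36%. In N2 alone 55 members were higher in this sense (29.9% against 19.4%) and 31 lower (16.8% against 21.8%). The 29 and the 55 include nhr-269, which N2 RNAi alone brought past the count limit and which had to differ in N2. In glp-1 alone 53 were higher (28.8% against 23.4%) and 54 lower (29.3% against 21.8%). The share above mock in both strains was thus larger among members than among all genes, with no test made of that difference.

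Intron counts, which come mainly from unspliced transcripts, could be tested for 70 of the 184 members. Under RNAi nhr-31 was the single member called, in both strains (1.43% of these members, against 1.07% of all genes in N2 and 0.694% in glp-1). Its intron counts were 10 and 5 in N2 mock, 64 and 36 in N2 RNAi, 27 and 22 in glp-1 mock, and 62 and 94 in glp-1 RNAi. Each RNAi library was above each mock library of its strain, from low counts in N2 mock. In N2 this intron rise was 6.47-fold, or 2.69 on the log2 scale (SE 0.42, adjusted p = 0.00105). That of glp-1 was 1.80 (SE 0.34, adjusted p = 0.0128). The glp-1 call was lost under DESeq2 (adjusted p = 0.0503) and without glp-1 mock 1 (0.242), glp-1 mock 2 (0.34) or glp-1 RNAi 2 (0.177). An annotated noncoding RNA overlaps nhr-31 on the other strand, so its reads could fall in these counts.

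The other intron changes did not pass. For nhr-121 intron counts were 6 and 1 in N2 mock, 22 and 10 in N2 RNAi, 13 and 11 in glp-1 mock, and 26 and 25 in glp-1 RNAi, a log2 change of 2.14 (SE 0.64, adjusted p = 0.165) in N2. Here too RNAi lay above mock in both strains, at counts too low for a firm estimate. Over the 70 members, the change of introns and that of mRNA had the same sign for 51 in N2 and 53 in glp-1. Pearson r was 0.654 in N2 and 0.54 in glp-1, over genes whose 2 kinds of count come from the same libraries. The strain difference of the intron effect was called for 0 members by edgeR (0.0198% of all genes) and 0 by DESeq2, with 3 members, 4.29% against 4.03% of all genes, at an unadjusted p under 0.05.

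**Figure D4:**
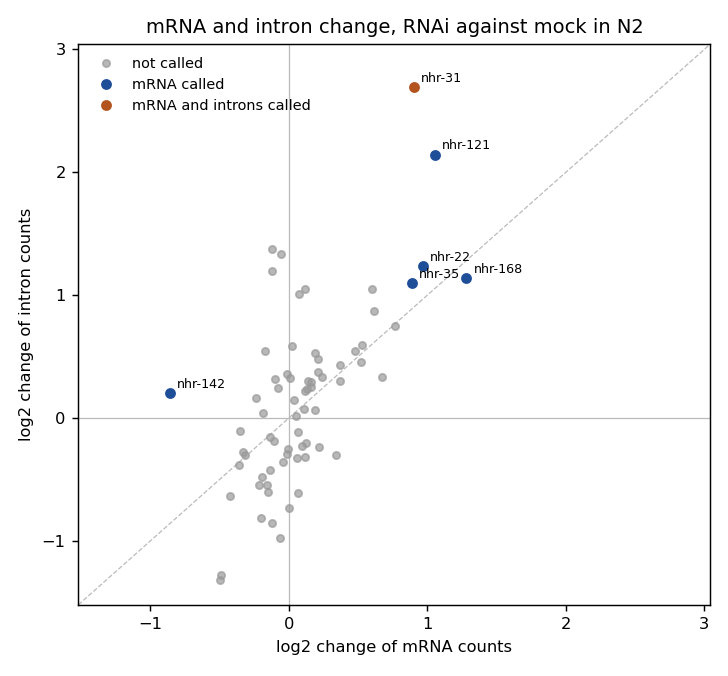
Log2 change of mRNA (horizontal) and of introns (vertical) under RNAi in N2 for the 70 members testable in both. The intron change of nhr-31, 2.69, lies above its mRNA change of 0.91.

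Apart from nhr-31, described above and in none of these lists, members with well-studied roles were grouped by role, and none of the lists had a member called under RNAi. With 4.79% of all genes called in N2 and 2.70% in glp-1, no calls in lists this short is near the background and sets the lists apart in no way. Of 9 receptors with orthologs across animals, 0 were called in either strain by edgeR or DESeq2, with 1 in N2 and 0 in glp-1 at an unadjusted p under 0.05. Their median log2 change was 0.12 in N2 and -0.04 in glp-1. They include nhr-23, the ROR counterpart required for molting, at 33.1 ± 5.59 CPM (SD, n = 2) in N2 mock and 35.9 ± 0.852 CPM in N2 RNAi. In the same list nhr-85, the Rev-Erb counterpart that acts in developmental timing, measured 3.25 ± 0.0829 CPM in N2 mock and 4.65 ± 0.841 CPM in N2 RNAi. That log2 change of 0.52 (SE 0.21, adjusted p = 0.288) was the one with the lowest p of the list. For nhr-8, which acts in sterol balance and toxin resistance, the levels were 33.3 ± 0.575 and 33.5 ± 2.62 CPM. The NR4A counterpart nhr-6, needed in the spermatheca, was low, at 1.04 ± 0.233 and 1.65 ± 1.10 CPM, and nhr-25, the Ftz-F1 counterpart of epidermis and molting, measured 9.59 ± 4.2 and 10.4 ± 2.34 CPM.

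The 5 molting and stage-timing receptors, all in the preceding list, had a median of 0.12 in N2, where all 5 changes were positive, and -0.04 in glp-1. Of 12 receptors of metabolism, diet and xenobiotics, 0 were called by edgeR or DESeq2, with 1 in N2 and 2 in glp-1 at an unadjusted p under 0.05 and medians of -0.02 in N2 and -0.20 in glp-1. The NHR-49 partner nhr-13 measured 10.3 ± 0.0183 CPM in glp-1 mock and 14.5 ± 1.37 CPM in glp-1 RNAi (log2 change 0.48, SE 0.17, adjusted p = 0.252). The serotonin-responsive fat regulator nhr-76 measured 9.61 ± 0.439 CPM in N2 mock and 6.82 ± 0.924 CPM in N2 RNAi (log2 change -0.49, SE 0.19, adjusted p = 0.258). Opposite signs in the strains were measured for nhr-64, an HNF4-like gene, with log2 changes of 0.37 (SE 0.17) in N2 and -0.25 (SE 0.17) in glp-1. For nhr-114, which protects the germline from harmful effects of diet, the log2 change was -0.35 (SE 0.16, adjusted p = 0.455) in glp-1.

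Of 6 receptors of embryo, neuron, muscle and cell fate, again 0 were called by edgeR or DESeq2, with 0 in N2 and 1 in glp-1 at an unadjusted p under 0.05 and medians of 0.08 in N2 and -0.18 in glp-1. The early embryonic factor nhr-2 was even in N2, at 41.6 ± 7.52 CPM under mock and 41.7 ± 1.51 CPM under RNAi. In glp-1 it was 41.6 ± 2.53 and 31.2 ± 2.85 CPM, a log2 change of -0.41 (SE 0.15, adjusted p = 0.303). The embryonic factor nhr-60 had a log2 change of 0.72 (SE 0.34, adjusted p = 0.396) in N2, from a level of 1.42 ± 0.0265 CPM. In the strain comparisons 0 members of these lists were called by edgeR or DESeq2, and each list had at most 1 at an unadjusted p under 0.05.

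Between strains under mock, 7 members were higher in glp-1 than in N2 and 0 were lower. The 7 were nhr-54, nhr-101, nhr-53, nhr-63, nhr-50, nhr-136 and nhr-211, all on chromosome V. They made up 3.80% of members, against 9.73% of all genes called. The median log2 difference was 0.13 over members and 0.00 over all genes, and 66.3% of members were positive, against 50.2% of all genes. These calls depended on single libraries: 0 were made without N2 mock 1, glp-1 mock 1 or glp-1 mock 2, and 3 without N2 mock 2. The share of all genes called fell as well, to 3.95%, 3.09%, 3.03% and 5.09%, while the log2 differences of the 7 stayed between 0.67 and 1.56. Over the mock and RNAi libraries of a strain together, germline markers summed to 76.6% of their N2 level in glp-1. Sperm markers summed to 80.6 to 98.9 CPM against 48.6 to 71.6 CPM. Of the 6 sperm markers 2 were called higher in glp-1 under mock, try-5 (log2 1.85) and gsp-4 (0.89), and all 6 differences were positive. On the same basis body wall muscle markers summed to 78.2% of N2, close to the germline figure, hypodermal markers to 123% and neuronal markers to 105%. Nearly all of the hypodermal sum was col-19, at 2804 CPM in N2 mock and 3257 CPM in glp-1 mock. That gene was not called under mock (log2 0.22, adjusted p = 0.505). The median log2 difference of the hypodermal list under mock was -0.20. Among the muscle, hypodermal and neuronal markers, myo-3 (log2 -0.68), rol-6 (-2.59) and rab-3 (0.93) were called under mock. Each was the only marker called in its list, of 3, 4 and 5 markers. Of the 4 hypodermal markers 2 had a positive difference, and of the 5 neuronal markers 4 did. The part of these shifts in the nhr values was not tested.

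Highest among them in fold was nhr-54 (WBGene00003644; V from 16503944 to 16505928, minus strand), at 0.736 and 0.778 CPM in N2 mock, 1.25 and 0.917 CPM in N2 RNAi, 2.14 and 1.95 CPM in glp-1 mock, and 2.43 and 2.63 CPM in glp-1 RNAi. Every glp-1 library was above every N2 library. Under mock the log2 difference was 1.43 (SE 0.28, adjusted p = 0.00908). Under RNAi it measured 1.22 (SE 0.26, adjusted p = 0.0124). The most abundant with a call under both treatments, nhr-101 (WBGene00003691; V from 11570476 to 11572549, plus strand), measured 8.48 and 9.45 CPM in N2 mock, 9.90 and 9.73 CPM in N2 RNAi, 16 and 15.6 CPM in glp-1 mock, and 15.5 and 18.3 CPM in glp-1 RNAi. Its strains were fully separate, with a log2 difference of 0.82 under mock (SE 0.17, adjusted p = 0.0105) and 0.78 under RNAi (SE 0.16, adjusted p = 0.011). It overlaps pms-2 on the other strand, so the counts could include reads of that gene.

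Called under both treatments was also nhr-211 (WBGene00020152; V from 486984 to 489142, plus strand), at 2.59 and 2.22 CPM in N2 mock, 2.12 and 2.24 CPM in N2 RNAi, 4.21 and 4.19 CPM in glp-1 mock, and 4.21 and 3.21 CPM in glp-1 RNAi. The strains did not overlap, and DESeq2 called the gene under neither treatment (adjusted p = 0.0891 and 0.0848). By edgeR the log2 difference was 0.80 under mock (SE 0.22, adjusted p = 0.0429) and 0.76 under RNAi (SE 0.22, adjusted p = 0.0383). The remaining 4 were called under mock only, though each had the same sign under RNAi. They were nhr-53 (1.24, SE 0.26, adjusted p = 0.0124), nhr-63 (1.38, SE 0.29, adjusted p = 0.013), nhr-50 (0.87, SE 0.20, adjusted p = 0.0207) and nhr-136 (0.70, SE 0.19, adjusted p = 0.0399), all as log2 differences under mock. Both nhr-50 and nhr-136 overlap a coding gene on the other strand. Under RNAi in N2, nhr-63 was near the threshold too, and that comparison shares the N2 mock libraries with this one.

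Under RNAi, 7 members were higher and 3 lower in glp-1 than in N2, or 5.43% of members against 18.1% of all genes. This count moved widely, to 8, 0, 4 and 13 without N2 RNAi 1, N2 RNAi 2, glp-1 RNAi 1 and glp-1 RNAi 2, and the all-gene share moved with it, to 14.4%, 3.38%, 8.03% and 25.6%. Besides nhr-54, nhr-101 and nhr-211, the higher ones were nhr-130, nhr-171, nhr-11 and nhr-116. The level of nhr-130 was 10.1 and 8.63 CPM in N2 mock, 6.68 and 7.12 CPM in N2 RNAi, 11.2 and 11.3 CPM in glp-1 mock, and 11.3 and 11.5 CPM in glp-1 RNAi, so N2 RNAi was the low group. Its log2 difference was 0.72 (SE 0.17, adjusted p = 0.0169). Those of nhr-171, nhr-11 and nhr-116 were 1.66 (SE 0.46, adjusted p = 0.0311), 0.71 (SE 0.21, adjusted p = 0.0384) and 0.85 (SE 0.26, adjusted p = 0.0422). Lower in glp-1 were nhr-59 with -0.74 (SE 0.23, adjusted p = 0.044), nhr-71 with -0.48 (SE 0.15, adjusted p = 0.0454) and nhr-269, whose high group, N2 RNAi, was the one that brought it past the count limit, so that 2 lower members remain without it. DESeq2 did not call nhr-171 (adjusted p = 0.0666), nhr-116 (0.0837) or nhr-59 (0.0792). For nhr-71 the call was lost with a replicate block (0.0558), without the filter (0.0545) and after removal of a trend over coding length (0.0944). That last setting also ended the calls of nhr-116 (0.0515) and nhr-211 (0.0557), and with the compared groups fitted alone 0 members were called.

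**Figure D5:**
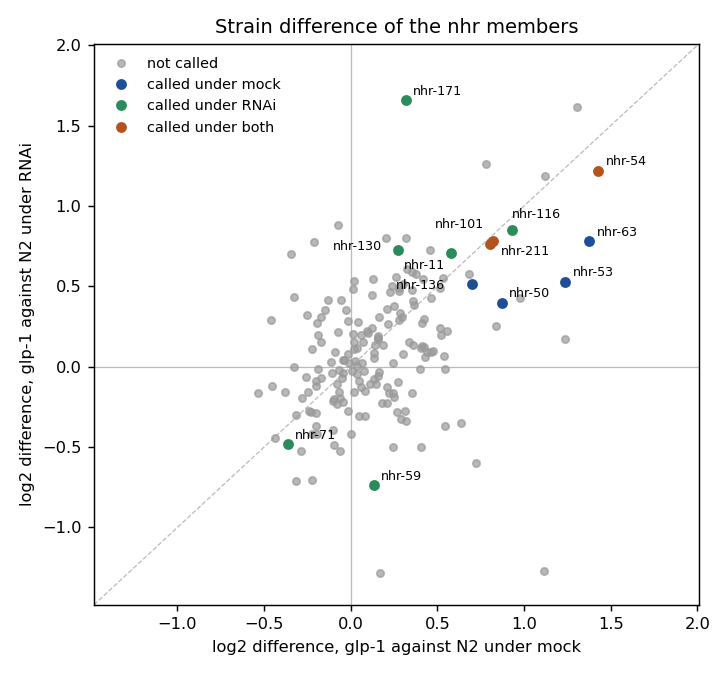
Log2 difference of each nhr member between glp-1 and N2 under mock (horizontal) and under RNAi (vertical), without nhr-269. Coloured points passed the threshold under mock, RNAi or both, and all 7 called under mock lie in the upper right quadrant.

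By libraries that did not overlap, 76 members were higher in glp-1 under mock (41.3%, against 32.6% of all genes) and 23 lower (12.5%, against 30.3%). Under RNAi these were 63 (34.2% against 32.2%) and 29 (15.8% against 29.3%). Under both treatments 37 members were higher, 20.1% against 20.9%, and 8 were lower, 4.35% against 19%. The 8 were nhr-4, nhr-12, nhr-19, nhr-48, nhr-56, nhr-61, nhr-71 and nhr-256. The nhr genes were thus seldom on the side that was lower in glp-1, a measured share without a test. The 37, and so the 76 under mock, include nhr-258, which met the count limit through glp-1 mock alone. The 29 include nhr-269, which met it through N2 RNAi alone. Neither place is a result, since the limit chose these genes by those groups. The strain difference had the same sign under both treatments for 66.3% of members, against 75.8% of all genes, with a Pearson r of 0.391 against 0.76. Of intron counts, 0 members were called between strains by edgeR under either treatment, where 0.417% and 0.516% of all genes were. At an unadjusted p under 0.05 there were 14 members under mock, 20% against 10.3% of all genes, and 6 under RNAi, 8.57% against 9.24%, and DESeq2 called 0 in both.

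In the genome the members were unevenly spread. Chromosome V held 119 of the 184, or 64.7%, against 19.3% of all genes tested, and IV held 28, X 17, II 10, I 7 and III 3. Members on V were the least abundant, with a median of 3.40 CPM per kilobase, against 7.46 on IV, 8.43 on II and 9.10 on X. On V, 12.8% of all genes were called between strains under mock, the contrast in which all 7 called members lay there.

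With neighbours joined across gaps of at most 50000 bases, 111 members fell into 25 runs and 73 stood alone. The largest run held 19 members on V from 2192485 to 2296977, nhr-13 among them, and their log2 changes under RNAi in N2 had a median of 0.05. In a run of 15 members on V from 451451 to 536247, nhr-202 fell and nhr-99 rose under RNAi in N2, although they stand close together, and the run's median was 0.11. To the same run belong nhr-130, called between strains under RNAi, and nhr-211, called under both treatments by edgeR but not by DESeq2. In a run of 7 on V from 1603906 to 1629432, the strongly raised nhr-179 stood with neighbours whose changes brought the run's median to -0.24. The neighbours nhr-50 and nhr-63, on V from 15997726 to 16004735, were both higher in glp-1 under mock. Near-identical family members could share reads, so values of single genes within runs are uncertain to that extent.

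Of nuclear receptors with other names, daf-12, sex-1 and unc-55 could be tested. Under RNAi against mock 0 of these, and 0 of 7 testable cofactors and ligand enzymes, were called by edgeR or DESeq2, with 1 cofactor or enzyme in N2 at an unadjusted p under 0.05. Between strains under RNAi, glp-1 libraries were lower than N2 for the mediator subunit mdt-15 (log2 difference -0.62, adjusted p = 0.0262), the acetyltransferase cbp-1 (-0.72, adjusted p = 0.0138), the corepressor din-1 (-0.88, adjusted p = 0.0173) and sex-1 (-0.72, adjusted p = 0.0461). In this contrast 18.1% of all genes were called. Values with a library left out are not given for these genes. The set-aside receptors nhr-68 and nhr-80, which act in propionate breakdown and fatty acid desaturation, were higher in glp-1 under mock, by 0.72 (adjusted p = 0.0112) and 0.60 (adjusted p = 0.0499) on the log2 scale. Under mock 9.73% of all genes were called.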

How the data were processed

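The authors deposited whole-number counts for each gene, in 1 table for mRNA and 1 for introns, which were used unchanged. Neither the aligner nor the genome build, annotation, counter or use of strand is given in the sources used here. Per the labels, total RNA went through a ScriptSeq v2 library kit, and groups were taken from the sample titles. Gene names came from a WormBase symbol table, and positions from Ensembl release 115 (WBcel235). Widths in the mRNA table, multiples of 3 for 96.6% of genes, were taken as coding length.

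Tests were made in edgeR 4.0.16, run in R 4.3.3. Low genes were filtered out by filterByExpr with a minimum count of 10, leaving 15321 for mRNA and 5042 for introns, and scaled by TMM. The 4 groups were fitted together by the robust quasi-likelihood method with 4 residual degrees of freedom. Tests were two-sided, with Benjamini-Hochberg adjustment over all genes of a table and a threshold of 0.05. CPM used TMM-scaled library sizes, and the filter and scaling bear most on members with few counts. The procedure was tested on simulated data.

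Named were all members called in an RNAi contrast, up to 10 per direction in each strain contrast, the 10 most abundant per kilobase, up to 4 per role list with the lowest p, and the 3 nearest to the threshold. Members and lists were chosen with earlier results of these data known. Alternatives were other size factors, no filter, a trend over coding length removed, a replicate block, the compared groups alone, DESeq2 1.42.0 and each library left out. No sequences are shown.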

Additional observations from a re-analysis of the deposited data

How the results depend on the processing

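Of 53 counts of called nhr genes under settings other than leaving out a library, 47 stayed within 1.5 times the reported count and 6 moved. Counts of 0 that stayed at 0 are among the 47. Between strains under mock 11 members were called when the compared groups were fitted alone, against 7. Between strains under RNAi DESeq2 called 5 and the compared groups alone 0, against 10. For introns, DESeq2 called 0 against 1 under RNAi in glp-1, and the fits without a filter and with a replicate block each called 1 against 0 between strains under RNAi. The causes were not tested. With 1 library left out, counts ranged from 6 to 8 for RNAi in N2, 0 to 3 in glp-1, 0 to 0 for their difference, 0 to 3 between strains under mock and 0 to 13 under RNAi. For introns the ranges were 1 to 2, 0 to 1, 0 to 0, 0 to 0 and 0 to 1. No value of a called member reversed its sign in these settings. With all libraries kept, 24 of 173 mRNA values and 1 of 10 intron values of called members no longer passed, mostly values of the strain comparisons and of single genes named above.

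With the replicate number as a block, edgeR called 10 members under RNAi in N2, of which 9 were called without it, 2 in glp-1, 0 for their difference, 9 between strains under mock and 9 under RNAi. The labels do not say that the numbers pair samples, and with 2 libraries a group the deviations of same-numbered libraries correlated at 0.17 between the N2 groups and -0.04 between the glp-1 groups over 15321 genes. The median SE of a member's log2 change under RNAi in N2 was 0.21 for mRNA and 0.49 for introns, and no detection limit was computed.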

Other observations

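The member nhr-17 (WBGene00003616; X from 12663837 to 12667854, minus strand, WBcel235) was singled out after its values were seen, for its spread between replicates. Its levels were 12.8 and 49.9 CPM in N2 mock, 13.5 and 42.7 CPM in N2 RNAi, 25.6 and 27.9 CPM in glp-1 mock, and 13.4 and 21.1 CPM in glp-1 RNAi. The ratio of the higher to the lower replicate was 3.90 in N2 mock and 3.17 in N2 RNAi. Among the members with at least 5 CPM, 93 in N2 mock and 96 in N2 RNAi, the median ratio was 1.14 and 1.13. Intron counts of nhr-17 were 48 and 459 in N2 mock, and 42 and 330 in N2 RNAi, with 89 to 208 in the glp-1 libraries, so the intron counts in N2 were apart in the same libraries as the mRNA. The gene overlaps nlp-76 on the same strand, so counts of either kind could include reads of that gene. The next widest pair in N2 mock belonged to nhr-43, with a ratio of 2.39 there and 1.84 in N2 RNAi.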
